A study of Mus musculus with 9 samples.

Results

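The circadian clock genes Per1, Per2, Per3, Cry1, Cry2, Arntl (also called Bmal1), Clock, Nr1d1, Nr1d2 and Dbp were followed in mouse primary renal tubular epithelial cells (TECs). These 10 genes were taken by symbol from the 31167 genes of the expression table, each matched 1 row, and all 10 passed the filter on low values that left 13985 genes for testing. RNA was sequenced from 9 libraries of C57BL/6 TECs grown to about 50% confluence, 3 each from the Sham, H/R and EGR1OV groups. Sham cells were the untreated negative control. H/R cells were kept without glucose at 1.0% oxygen for 6 h and then in complete medium for 18 h of reoxygenation, a culture model of ischemia and reperfusion. EGR1OV cells received an overexpression plasmid for Egr1, an immediate early transcription factor, driven by a viral promoter. No empty-vector group is labelled, and the labels do not say that replicates came from separate animals or cultures, so p-values measure the spread between these libraries only. The study lists H/R and the plasmid as separate treatments, although its general transfection protocol has H/R follow transfection. The hour of harvest and any synchronisation of the cells are not given in the sources used here, and each group was read at a single time.

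The mammalian clock is a feedback loop of transcription that runs in nearly every cell, the kidney tubule included. The proteins of Arntl and Clock pair up and bind E-box motifs, where they drive the Per, Cry and Nr1d genes and Dbp. PER and CRY proteins then return to the nucleus and repress that pair. REV-ERB proteins, made from Nr1d1 and Nr1d2, repress Arntl and compete for the same motif with the activating ROR proteins. DBP is an output factor that binds D-box motifs. In an entrained tissue some genes driven by E-boxes, such as Nr1d1 and Dbp, peak at about the opposite phase of the day to Arntl. Not all of them do, and a single time shows a level and not a rhythm.

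Short stretches of promoter are shown for the genes whose window holds the letters of a motif of the loop described above. Whether the loop acts through these stretches was not tested. Windows from 250 bases before to 50 after each RefSeq transcription start (GRCm38.p6) matched 9 of the 10 genes with 13 windows, and Per2 was not searched. Capitals mark the motif. AACGTG is CACGTT read on the other strand.
Cry1, chr10:85185095-85185154, minus strand, upstream of the gene: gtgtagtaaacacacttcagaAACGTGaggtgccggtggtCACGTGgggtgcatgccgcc
Per1, chr11:69098753-69098812, plus strand, upstream of an internal start and inside an intron: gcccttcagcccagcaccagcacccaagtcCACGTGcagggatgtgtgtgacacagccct
Nr1d1, chr11:98775378-98775437, minus strand, upstream of the gene: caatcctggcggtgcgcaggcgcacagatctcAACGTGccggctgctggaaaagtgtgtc
Cry2, chr2:92434206-92434265, minus strand, upstream of the gene: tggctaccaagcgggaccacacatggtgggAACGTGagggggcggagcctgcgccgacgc
Per3, chr4:151044806-151044885, minus strand, upstream of the gene: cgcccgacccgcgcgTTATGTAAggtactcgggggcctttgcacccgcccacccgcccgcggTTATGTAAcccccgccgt
Arntl, chr7:113207529-113207558, plus strand, in an exon just after the start: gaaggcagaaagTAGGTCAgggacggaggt

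The E-box CACGTG was in the Cry1 and Per1 windows and in 7.15% of all 32851 windows of this length, searched on both strands. Its variant CACGTT was in the Cry1, Cry2 and Nr1d1 windows and in 4.68% of all windows. The D-box TTATGTAA occurred at 2 places in the Per3 window and was in 0.938% of all windows. TAGGTCA, the motif shared by ROR and REV-ERB proteins, was in the Arntl window and in 2.61% of all windows. The cAMP element TGACGTCA (1.79% of all windows), the D-box TTACGTAA (0.119%) and the EGR motifs GCGTGGGCG (0.612%) and GCGGGGGCG (2.91%) were in none of the 13 windows. The matches did not overlap one another. A match is a run of letters in these windows, and binding was not measured.

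Levels are given as FPKM, a fragment rate per kilobase of exon scaled to sequencing depth, which corrects for length and lets genes be set side by side. In Sham the order was Nr1d2 (11.04 ± 0.293 FPKM, SD, n = 3), Clock (6.21 ± 0.22), Nr1d1 (6.16 ± 0.371), Per1 (3.54 ± 0.0773), Cry1 (2.83 ± 0.0583), Cry2 (2.73 ± 0.103), Arntl (2.32 ± 0.168), Per2 (1.47 ± 0.0707), Per3 (0.961 ± 0.103) and Dbp (0.889 ± 0.0796). Neighbours in that order did not overlap between libraries except Clock with Nr1d1, Cry1 with Cry2, and Per3 with Dbp. The reads behind these levels ran from 24 to 48 per library for Dbp and 71 to 177 for Per2 up to 1297 to 1530 for Clock. Cry1 moved most in rank, from the fifth place in Sham to the fourth in H/R and the seventh in EGR1OV, and its libraries lay apart from those of Per1 below it in H/R and Cry2 above it in EGR1OV. Nr1d1 stood above Clock in EGR1OV and below it in H/R, with no overlap between the libraries in either group.

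**Figure D1:**
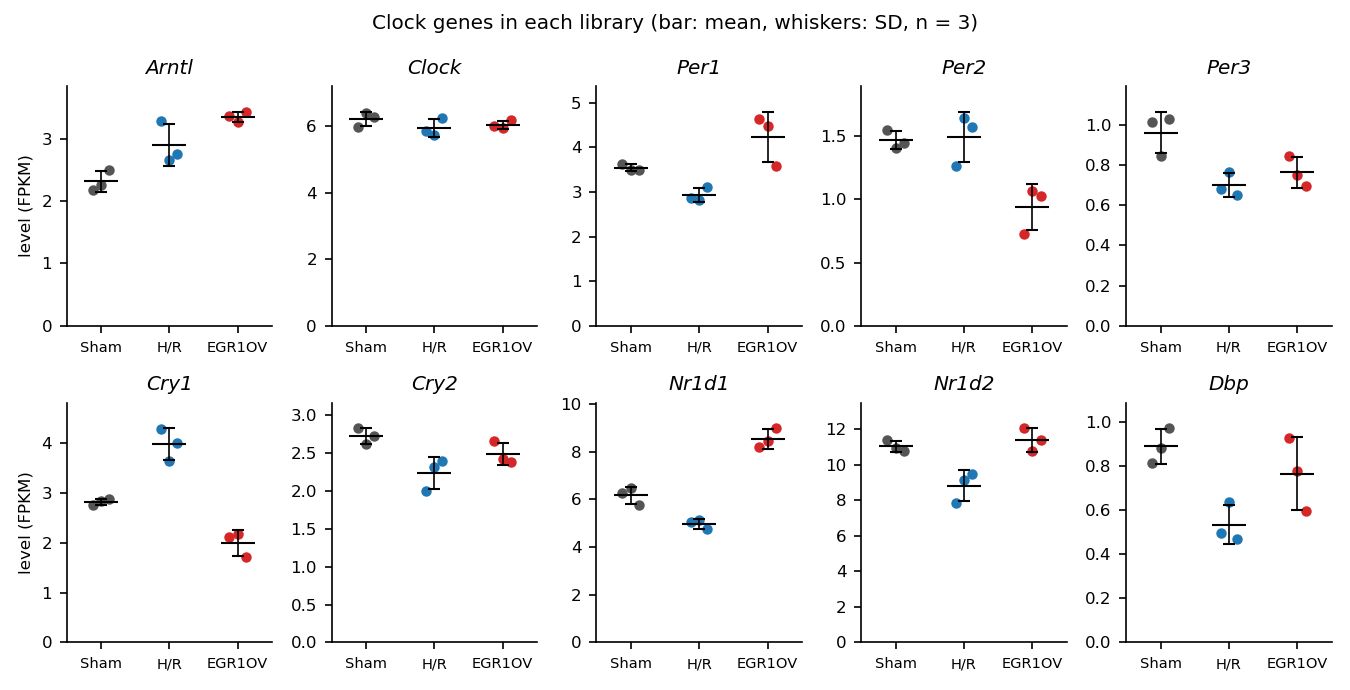
Level of each clock gene in FPKM (linear axes from 0) in every library of Sham, H/R and EGR1OV, with the mean as a bar and the SD as whiskers (n = 3 each). Cry1 is higher in H/R and lower in EGR1OV than in Sham, Nr1d1 shows the opposite arrangement, and Clock lies between 5.73 and 6.39 FPKM in all 9 libraries.

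The tubule label was checked against markers of the cells. Krt8 and Krt18, keratins of simple epithelia, averaged 1014 and 685 FPKM in Sham. Umod, which defines the thick ascending limb, was listed at 0 in all libraries, and Slc34a1, Cubn, Slc12a1 and Slc12a3 averaged under 0.5 FPKM over the 9 libraries. The summed level of the 15 tubule markers in the table was 1930 to 1966 FPKM in Sham, 1785 to 1864 in H/R and 1271 to 1377 in EGR1OV. Most of that sum was Krt8 and Krt18, at 618 and 412 FPKM in EGR1OV. Of 10 tubule genes tested, 4 were called lower and 1 higher in EGR1OV against Sham. The 12 leukocyte markers, led by Lyz2 and C1qa, summed to 154 to 160 FPKM in Sham, 130 to 140 in H/R and 28.1 to 33.4 in EGR1OV. All 9 leukocyte genes tested were called lower in EGR1OV against Sham. The 6 endothelial markers, led by Cdh5 and Emcn, summed to 9.74 to 10.3, 10.1 to 10.3 and 7.04 to 7.61 FPKM. The 6 fibroblast markers, led by Col1a1 and Pdgfrb, summed to 25.7 to 26.9, 29.8 to 31.3 and 28.1 to 32.4 FPKM. In bulk RNA fewer cells of a type and less RNA per cell cannot be told apart, and the part of these shifts in the clock gene levels was not tested.

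Differences between groups were tested on log2(FPKM + 1) with limma across all 13985 genes, and a call needed a Benjamini-Hochberg adjusted p below 0.05 together with 1.2-fold for H/R against Sham, or 1.3-fold where EGR1OV was set against Sham or H/R. Adding 1 shrinks the change of genes near 1 FPKM, which most touches Per2, Per3 and Dbp. For this reason the reads behind each value, recovered from the steps of the FPKM values, were also tested with limma voom, where no constant of that size is added. Both treated groups were compared with the same Sham libraries. Each gene was also put through an exact permutation test (two-sided), for which 0.1 is the lowest p that 3 against 3 libraries allow.

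After H/R, Cry1 rose and Nr1d2 fell, and they were the only 2 of 10 clock genes called by limma on log2(FPKM + 1). Of all genes tested, 4.25% were called in this comparison (1.6% higher, 2.65% lower). The Sham and H/R libraries did not overlap for 8 of the 10 genes, 2 higher and 6 lower in H/R, where 33.6% of all genes lay apart (11.8% higher, 21.8% lower). The median log2 change of the 10 genes was -0.205, against -0.03 over all genes tested. With voom on the recovered reads 8 of 10 were called, higher for Cry1 and Arntl and lower for Per1, Per3, Cry2, Nr1d1, Nr1d2 and Dbp, against 7.1% of all genes (2.4% higher, 4.7% lower). Voom used the recovered depth with no further scaling, and voom after median-ratio scaling was not run. In the limma fit that scaling moved the changes of the 10 genes up by 0.0152 to 0.0372. Adding 1 FPKM makes such a shift smaller, most of all for the low genes. The voom changes of Per1 (-0.27) and Cry2 (-0.28) lay close to the 1.2-fold threshold.

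In EGR1OV against Sham, Nr1d1 and Arntl rose and no clock gene was called lower, so 2 of 10 were called by limma on log2(FPKM + 1) against 16.4% of all genes (9.87% higher, 6.51% lower). At an unadjusted p under 0.05 from that fit there were 5 of 10, and 52.5% of all genes. The libraries lay apart for 4 of the 10 genes, higher for Nr1d1 and Arntl and lower for Cry1 and Per2, where 55.7% of all genes lay apart (31.0% higher, 24.6% lower). Voom called those 4 genes in those directions, against 21.4% of all genes (12.3% higher, 9.06% lower). The median log2 change of the 10 genes was -0.065, against 0.017 over all genes. The summed leukocyte markers moved with this comparison, from 154 to 160 FPKM in Sham to 28.1 to 33.4 in EGR1OV, and their part in the clock gene values was not tested. Egr1 itself, the check of the labels, averaged 6.40 FPKM in the Sham libraries, 7.88 after H/R and 42.6 with the plasmid.

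Set against H/R, EGR1OV had lower Cry1 and higher Nr1d1 and Per1. These were 3 of 10 clock genes, against 18.9% of all genes called (11.9% higher, 6.94% lower). Libraries lay apart for 5 genes, higher for Per1, Nr1d1 and Nr1d2 and lower for Per2 and Cry1, where 58.6% of all genes lay apart (36.6% higher, 22.0% lower). Voom called 4 genes, adding Per2, against 25.2% of all genes (15.9% higher, 9.29% lower). The median log2 change of the 10 genes was 0.136, against 0.055 over all genes.

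**Figure D2:**
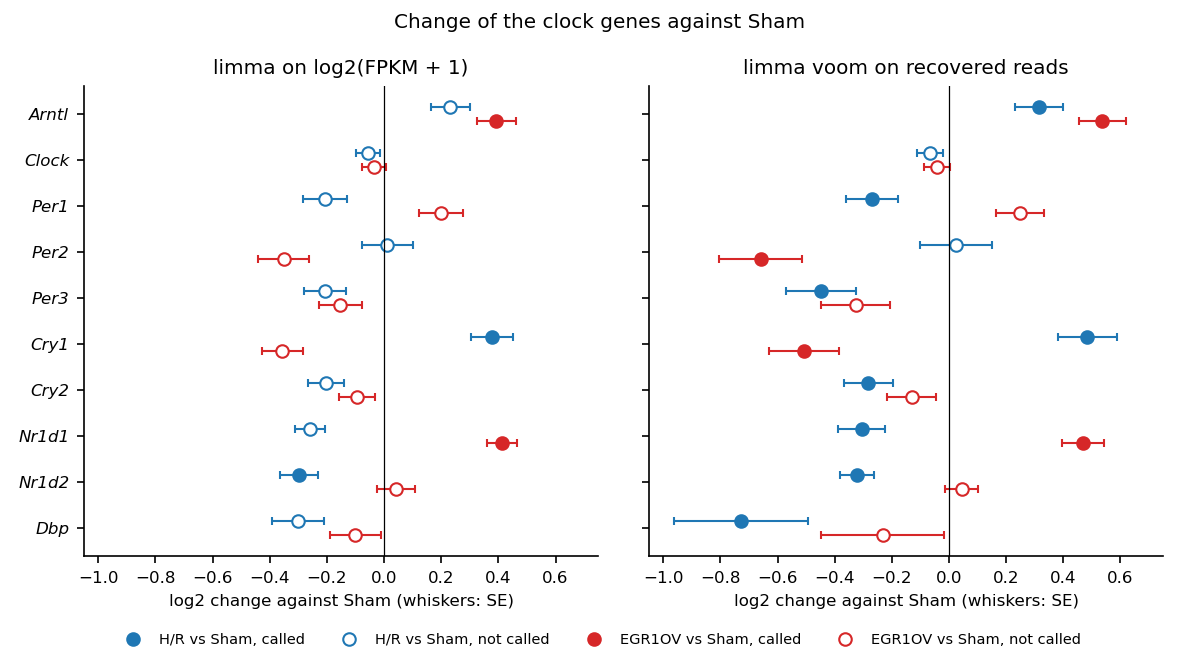
Log2 change of each clock gene against Sham for H/R (blue) and EGR1OV (red), from limma on log2(FPKM + 1) at the left and limma voom on recovered reads at the right, with SE as whiskers and filled points for called genes. Filled points number 2 for H/R and 2 for EGR1OV at the left, and 8 and 4 at the right.

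Among the activators, Arntl (ENSMUSG00000055116, chr7:113207465-113314126) stood at 2.18, 2.26 and 2.504 FPKM in Sham, 3.29, 2.65 and 2.76 in H/R, and 3.37, 3.26 and 3.42 in EGR1OV. All treated libraries lay above all Sham libraries, and the H/R and EGR1OV libraries overlapped. On the log2(FPKM + 1) scale Arntl rose in EGR1OV by 0.39 (SE 0.0689, limma adjusted p 0.00133), a ratio of means of 1.45. The change after H/R was 0.23 (SE 0.0689, limma adjusted p 0.0608), and voom gave 0.31 (SE 0.0842, adjusted p 0.0103). Median-ratio scaling gave 0.2624 (limma adjusted p 0.0438) for H/R, just under 1.2-fold. Quantile normalization gave 0.2757 (limma adjusted p 0.0395), past it. Voom and quantile normalization were the only 2 of 17 alternatives that called Arntl after H/R. Between EGR1OV and H/R the difference was 0.16 (limma adjusted p 0.0786). The call in EGR1OV was lost below the fold threshold without Sham replicate 1 (0.36), and after median-ratio scaling (0.37) or quantile normalization (0.34).

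Clock (ENSMUSG00000029238, chr5:76209868-76304792), the partner of Arntl, stood at 5.97, 6.39 and 6.28 FPKM in Sham, 5.84, 5.73 and 6.24 in H/R, and 6.00, 5.93 and 6.17 in EGR1OV. Its libraries overlapped in every comparison. The log2 change was -0.06 for H/R against Sham (95% confidence interval -0.15 to 0.04), -0.04 for EGR1OV against Sham (-0.13 to 0.06) and 0.02 for EGR1OV against H/R (-0.08 to 0.12). Those intervals lie inside the fold thresholds used for calls.

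Of the repressors, Cry1 (ENSMUSG00000020038, chr10:85131700-85185064), a cryptochrome whose promoter window holds both E-box forms shown above, stood at 2.77, 2.83 and 2.88 FPKM in Sham, 4.29, 3.65 and 4.001 in H/R, and 2.11, 2.18 and 1.71 in EGR1OV. No group overlapped another, with H/R highest and EGR1OV lowest. Cry1 rose after H/R by 0.38 (SE 0.073, limma adjusted p 0.013), a ratio of means of 1.41. It was called in all 17 alternative analyses that tested it, with log2 changes from 0.33 to 0.48 and adjusted p from 0.00152 to 0.0456. In EGR1OV against Sham the log2 change was -0.36 (SE 0.073, limma adjusted p 0.00328), a ratio of means of 0.707. That change was under the 1.3-fold threshold after adding 1 FPKM and past it under voom (-0.51, adjusted p 0.00106), and also without EGR1OV replicate 1 (-0.38) or EGR1OV replicate 2 (-0.40). Cry1 was also called lower with a pseudocount of 0.1 or with quantile normalization, so 5 of 17 alternatives called it. Directly against H/R, EGR1OV had lower Cry1 by -0.73 (SE 0.073, limma adjusted p 3.18e-05), a ratio of means of 0.502, again called in all 17 alternatives.

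Cry2 (ENSMUSG00000068742, chr2:92403646-92434043), the other cryptochrome, stood at 2.83, 2.62 and 2.72 FPKM in Sham, 1.995, 2.32 and 2.40 in H/R, and 2.66, 2.42 and 2.39 in EGR1OV. The H/R libraries lay below the Sham libraries, and EGR1OV overlapped both. No comparison called it with limma on log2(FPKM + 1), where H/R against Sham gave -0.20 (SE 0.0629, adjusted p 0.0682). Voom gave -0.28 for that comparison (SE 0.0869, adjusted p 0.0252), which is past the threshold.

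Per1 (ENSMUSG00000020893, chr11:69095217-69109960), a period gene that also responds acutely to cAMP and glucocorticoid signals, stood at 3.63, 3.49 and 3.50 FPKM in Sham, 2.88, 2.82 and 3.11 in H/R, and 4.63, 4.49 and 3.59 in EGR1OV. H/R libraries were the lowest, and EGR1OV replicate 3 fell among the Sham values. Per1 was higher in EGR1OV than in H/R by 0.41 (SE 0.076, limma adjusted p 0.0017), a ratio of means of 1.44. That call was lost below the fold threshold without EGR1OV replicate 1 (0.35) or EGR1OV replicate 2 (0.37), and after median-ratio scaling (0.35) or quantile normalization (0.29). Against Sham the changes were -0.21 after H/R (limma adjusted p 0.116) and 0.20 in EGR1OV (limma adjusted p 0.0576). Under voom the H/R change was -0.27 (SE 0.0907, adjusted p 0.0399) and past the threshold.

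Per2 (ENSMUSG00000055866, chr1:91415982-91459324), the period gene most tied to the core loop, stood at 1.55, 1.41 and 1.45 FPKM in Sham, 1.27, 1.64 and 1.57 in H/R, and 0.730, 1.07 and 1.03 in EGR1OV. The EGR1OV libraries lay below all others, while Sham and H/R overlapped. The ratio of the EGR1OV mean to the Sham mean was 0.640, and the log2(FPKM + 1) change of -0.35 (SE 0.0895, limma adjusted p 0.0102) was under the fold threshold. On the recovered reads voom gave -0.66 (SE 0.145, adjusted p 0.000415), a called change. Against H/R the values were -0.36 (limma adjusted p 0.00775) and -0.68 under voom (adjusted p 0.000216). EGR1OV replicate 1 was the lowest library, and without it the log2(FPKM + 1) change against Sham was -0.27, while without EGR1OV replicate 2 (-0.40) or EGR1OV replicate 3 (-0.38) it was past the threshold. H/R against Sham gave 0.01 (95% confidence interval -0.19 to 0.21).

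Per3 (ENSMUSG00000028957, chr4:151003652-151044665), a period gene less needed for the rhythm itself and the carrier of both D-box copies shown above, stood at 1.01, 0.842 and 1.03 FPKM in Sham, 0.682, 0.764 and 0.651 in H/R, and 0.846, 0.752 and 0.693 in EGR1OV. Only H/R lay apart from Sham. The log2(FPKM + 1) change was -0.21 after H/R (limma adjusted p 0.108) and -0.15 in EGR1OV (limma adjusted p 0.124), and the voom change after H/R was -0.45 (SE 0.123, adjusted p 0.0119), a called change.

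In the REV-ERB arm, Nr1d1 (ENSMUSG00000020889, chr11:98767932-98775333) stood at 6.27, 6.47 and 5.75 FPKM in Sham, 5.06, 5.14 and 4.75 in H/R, and 8.18, 8.43 and 8.98 in EGR1OV. No group overlapped another, with EGR1OV highest and H/R lowest, the reverse of Cry1. Nr1d1 rose in EGR1OV by 0.41 (SE 0.0523, limma adjusted p 0.000175), a ratio of means of 1.38. After quantile normalization (0.32) and without Sham replicate 3 (0.37) that change was below the fold threshold. After H/R the change was -0.26 (SE 0.0523, limma adjusted p 0.0156), just under 1.2-fold on this scale, and its adjusted p was over 0.05 without Sham replicate 1 (0.0537), Sham replicate 2 (0.0539) or H/R replicate 3 (0.0556) in the limma fit. It was past the threshold without Sham replicate 3 (-0.30), H/R replicate 1 (-0.27) or H/R replicate 2 (-0.28), and under voom (-0.31, adjusted p 0.00964). Nr1d1 was higher in EGR1OV than in H/R by 0.67 (SE 0.0523, limma adjusted p 6.13e-06), a ratio of means of 1.71, and was called in all 18 alternatives. Its exons share 263 of 3077 bases with Thra on the opposite strand, and whether counting used strand is not given in the sources used here. Thra was at 1.96, 1.77 and 1.68 FPKM on average in Sham, H/R and EGR1OV.

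Nr1d2 (ENSMUSG00000021775, chr14:18204054-18239127), the second REV-ERB gene and the most abundant clock gene here, stood at 11.4, 10.96 and 10.8 FPKM in Sham, 7.84, 9.14 and 9.51 in H/R, and 12.1, 10.8 and 11.4 in EGR1OV. The H/R libraries lay below all others. Nr1d2 fell after H/R by 0.30 on the log2 scale (SE 0.0657, limma adjusted p 0.0224), a ratio of means of 0.800. H/R replicate 1 was the lowest, and without it the change was -0.22 with an adjusted p of 0.0363, under the fold threshold. Without Sham replicate 1, 2 or 3 the changes were -0.28, -0.30 and -0.31 with adjusted p of 0.0711, 0.0584 and 0.055 from limma. Voom gave -0.32 (SE 0.0599, adjusted p 0.000379). In EGR1OV the change against Sham was 0.04 (95% confidence interval -0.11 to 0.19), and against H/R it was 0.34 (limma adjusted p 0.00214), under 1.3-fold except without H/R replicate 3 (0.39).

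Dbp (ENSMUSG00000059824, chr7:45705088-45710203), the D-box output factor, stood at 0.813, 0.882 and 0.972 FPKM in Sham, 0.496, 0.636 and 0.471 in H/R, and 0.925, 0.777 and 0.596 in EGR1OV. The H/R libraries lay below the Sham libraries, and EGR1OV spread over both. The ratio of the H/R mean to the Sham mean was 0.601, the lowest of the 10 genes in that comparison, on 24, 35 and 25 reads in H/R. The log2(FPKM + 1) change was -0.30 (SE 0.0902, limma adjusted p 0.0629), and voom gave -0.73 (SE 0.234, adjusted p 0.0317), which is past the threshold. Dbp exons share 539 of 2993 bases (18.0%) with Sphk2 on the opposite strand, and reads of the pair cannot be told apart there without strand. Sphk2 averaged 6.51 FPKM in the Sham libraries, 6.29 after H/R and 8.37 in EGR1OV.

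Exact permutation p was 0.1 for each gene whose groups lay apart. Among the H/R libraries, replicate 1 had the lowest Per2, Cry2 and Nr1d2 and the highest Cry1 and Arntl.

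Ratios between clock genes within a library do not depend on the scaling of that library, and are given as a description. Cry1 over Cry2 was 1.04 in Sham (geometric mean, libraries 0.978 to 1.08), 1.78 in H/R (1.58 to 2.15) and 0.800 in EGR1OV (0.715 to 0.901), with no overlap between groups. Per1 over Per2 was 2.41 in Sham (2.35 to 2.48), 1.98 in H/R (1.72 to 2.27) and 4.54 in EGR1OV (3.50 to 6.34), again apart. These ratios show that the cryptochrome pair and the period pair each moved unequally.

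Set over Arntl, 4 of the other clock genes separated by group in different ways. Nr1d1 over Arntl was 2.66 in Sham (2.30 to 2.87), 1.73 in H/R (1.54 to 1.94) and 2.55 in EGR1OV (2.43 to 2.63), so Sham and EGR1OV overlapped and H/R lay below. Dbp over Arntl was 0.384 in Sham (0.372 to 0.391), 0.183 in H/R (0.151 to 0.240) and 0.225 in EGR1OV (0.174 to 0.275), and both treated groups lay below Sham. Per2 over Arntl was 0.635 in Sham (0.578 to 0.709), 0.514 in H/R (0.385 to 0.620) and 0.277 in EGR1OV (0.217 to 0.327), lowest in EGR1OV without overlap. Clock over Arntl was 2.69 in Sham (2.51 to 2.83), 2.06 in H/R (1.78 to 2.26) and 1.80 in EGR1OV (1.78 to 1.82).

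**Figure D3:**
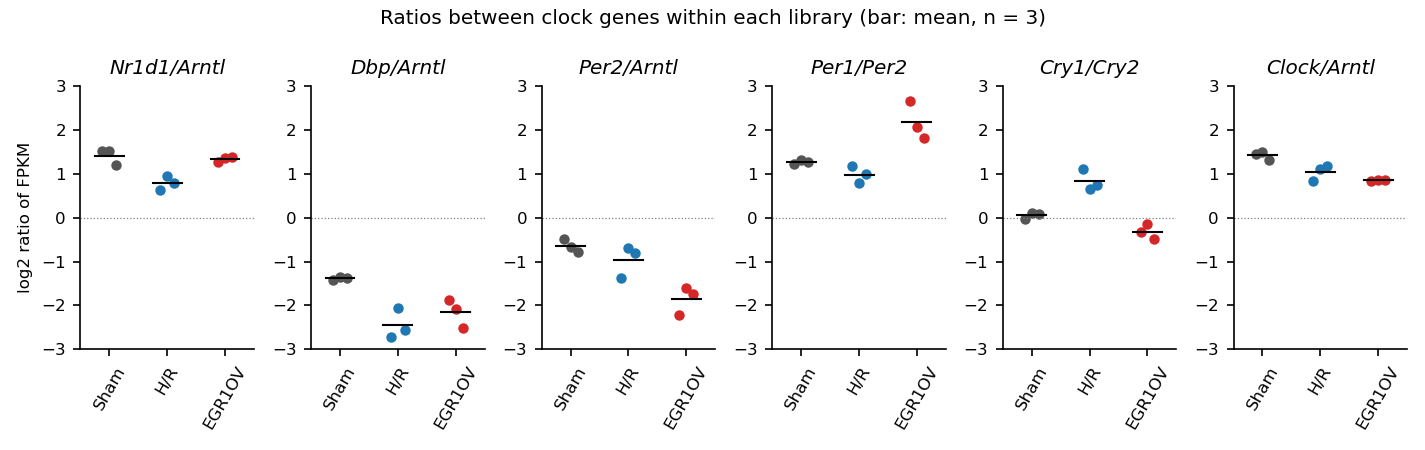
Log2 ratio of FPKM for 6 pairs of clock genes in each library of Sham, H/R and EGR1OV, with the mean of 3 libraries as a bar and a dotted line at equal levels. Cry1/Cry2 lies near the dotted line in Sham, above it in H/R and below it in EGR1OV, and Per1/Per2 is highest in EGR1OV.

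Of 36 other genes tied to the clock, in 3 lists, 29 were tested. The first list held 11 further factors of the loops, 8 of them tested. After H/R only Ciart, a repressor that acts on the Arntl and Clock pair, was called, and it fell from 2.05 ± 0.0774 to 1.46 ± 0.0293 FPKM (SD, n = 3, log2 -0.31, SE 0.0629, limma adjusted p 0.0156). Its libraries were 2.098, 2.08 and 1.96 FPKM in Sham and 1.48, 1.47 and 1.42 in H/R, which lay apart. That call was lost without Sham replicate 1 (limma adjusted p 0.054), Sham replicate 2 (0.0513) or H/R replicate 3 (0.0526), and with no filter on low values (0.051). In EGR1OV only Arntl2, a paralog of Arntl, was called on log2(FPKM + 1), and it rose from 3.28 ± 0.348 to 5.29 ± 0.133 FPKM (log2 0.56, SE 0.0807, limma adjusted p 0.000405). EGR1OV libraries were at 5.19, 5.25 and 5.44 FPKM, above every Sham and H/R library. Against H/R Arntl2 was again the only member called on log2(FPKM + 1) (log2 0.71, limma adjusted p 7.29e-05). Voom called Ciart after H/R, Arntl2 in both EGR1OV comparisons and, lower against H/R, Bhlhe41, a repressor at E-boxes (-0.42, adjusted p 0.000111), named here after its value was seen. Beside the 1 of 8 tested genes called by limma in each comparison stood 4.25%, 16.4% and 18.9% of all genes. These shares are for H/R against Sham, EGR1OV against Sham and EGR1OV against H/R. In the same order voom called 1, 1 and 2 of 7 genes, beside 7.1%, 21.4% and 25.2% of all genes. The list's median log2 change was -0.085 after H/R and 0.003 in EGR1OV.

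The second list held 15 kinases, ubiquitin ligases and other modifiers of clock proteins, 13 of them tested. None was called by limma on log2(FPKM + 1) in H/R against Sham, EGR1OV against Sham or EGR1OV against H/R. In that order 4.25%, 16.4% and 18.9% of all genes were called. At an unadjusted p under 0.05 from that fit stood 4, 7 and 10 of the 13, beside 28.0%, 52.5% and 56.5% of all genes. With the fold threshold dropped and the adjusted p kept, 0 passed after H/R, 7 in EGR1OV against Sham (4 higher, 3 lower) and 9 in EGR1OV against H/R (6 higher, 3 lower), where 11.7%, 45.9% and 51.0% of all genes passed. Voom called 0, 0 and 1 of the 11 genes of this list that it tested, beside 7.1%, 21.4% and 25.2% of all genes. The 1 called was Timeless, whose protein binds clock proteins (0.50, voom adjusted p 0.00094), named here after its value was seen. Among the 13 tested genes the largest changes in EGR1OV against Sham were 0.25 for Cipc, a repressor that binds CLOCK, and 0.25 for Fbxw11, a ubiquitin ligase subunit that acts on PER proteins, on the log2(FPKM + 1) scale.

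The third list held 10 clock-output and glucocorticoid-responsive genes, 8 of them tested. None was called after H/R by limma on log2(FPKM + 1), beside 4.25% of all genes. In that fit 4 of 8 had an unadjusted p under 0.05, and voom called 1, Edn1 (0.27). At that unadjusted p stood 28.0% of all genes. Edn1, which encodes endothelin, was at 0.26 in the limma fit, just under 1.2-fold, and past it without Sham replicate 3 (0.28) or H/R replicate 1 (0.27). Nampt, the rate-limiting enzyme of NAD salvage and a gene driven by the clock in other tissues, was at 7.28, 8.26 and 8.58 FPKM in Sham, 7.52, 7.83 and 8.10 in H/R, and 29.9, 27.7 and 31.3 in EGR1OV. EGR1OV stood far above both, and Nampt rose by 1.76 (SE 0.0623, limma adjusted p 2.31e-08), a larger change than that of any of the 10 clock genes in that comparison. Edn1 was the other gene called in EGR1OV on log2(FPKM + 1), and it fell from 48.5 ± 1.05 to 25.2 ± 0.812 FPKM (SD, n = 3). Voom also called Scnn1a, a subunit of the epithelial sodium channel, lower in EGR1OV against Sham (-0.41, adjusted p 0.0173), named here after its value was seen. By limma 2 of 8 were thus called in EGR1OV against Sham, beside 16.4% of all genes. Voom called 1 of 6 after H/R and 3 of 6 in EGR1OV against Sham, beside 7.1% and 21.4% of all genes. The list's median log2 change was -0.078 after H/R and -0.18 in EGR1OV.

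**Figure D4:**
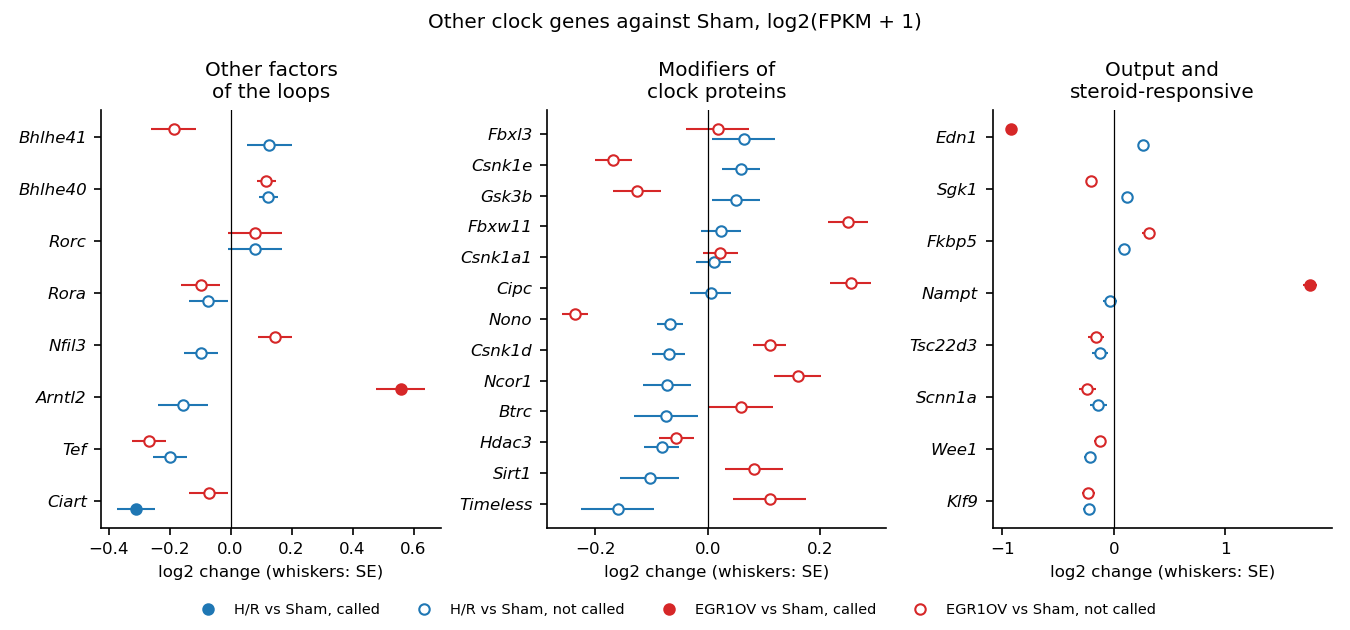
Log2(FPKM + 1) change against Sham of the 29 tested genes of the 3 lists, H/R in blue and EGR1OV in red, with SE as whiskers and filled points for called genes (each panel has its own scale). Filled points are Ciart for H/R, and Arntl2, Nampt and Edn1 for EGR1OV.

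The genes most like Cry1, the clock gene with the largest called change in H/R against Sham and in EGR1OV against H/R, were Myo5b, Nr3c1 and Fnbp1l among the 7588 genes that averaged 5 FPKM or more. Pearson's r of log2(FPKM + 1) over the 9 libraries was 0.99, 0.988 and 0.983. Nr1d1, with the largest called change in EGR1OV against Sham, was most alike to Psmd2, Mettl7a1 and Sympk (0.989, 0.989 and 0.988). These values describe 9 libraries in 3 groups, so they mostly compare group means.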

How the data were processed

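Total RNA of 9 libraries was sequenced on an Illumina NovaSeq. The authors deposited a table of FPKM values for 31167 genes in 9 columns, 1 for each library. The submitters' processing notes name Bowtie2 2.2.3, HISAT2 2.1.0, TopHat2 and the build mm9, and the counting tool, annotation and use of strand are not given in the sources used here. Of the gene positions 94.57% equalled GENCODE M21 (GRCm38), so coordinates are given in GRCm38. In 26 rows a symbol had become a date and was restored by identifier.

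Genes that averaged 0.5 FPKM or more were tested as log2(FPKM + 1) in a single limma fit of all libraries (3.58.1, R 4.3.3, eBayes with trend, two-sided, Benjamini-Hochberg over 13985 genes). The fold thresholds against Sham are the study's and the threshold between the treated groups was set for this work. With GENCODE exon lengths, FPKM steps gave reads: 98.74% of 154345 values of 1 to 1000 reads were whole within 0.02, and depth was 16183617 to 18384022 per library. No molecular identifiers are described, so reads are not taken as independent molecules. Voom tested 12899 genes. Code was tested on simulated data. Python 3.11.15 (pandas 2.3.3, scipy 1.17.1) made tables and figures.

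All clock genes were named, with called genes of 3 further lists, the Egr1 check, the top 2 and absent markers, and the 3 most alike genes. The 2 largest changes of the modifier list were named after their values were seen. Clock genes and lists were chosen with earlier results of these data known. Alternatives were a pseudocount of 0.1, other filters, median-ratio and quantile scaling, a replicate block, limma without trend, fits of only the groups compared, each library left out, voom, and no fold threshold.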

Additional observations from a re-analysis of the deposited data

How the results depend on the processing

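By limma on log2(FPKM + 1), 2, 2 and 3 of the 10 clock genes were called in H/R against Sham, EGR1OV against Sham and EGR1OV against H/R, and 1, 3 and 3 of the other clock genes. Clock genes called after H/R numbered 1 with no filter on low values or with median-ratio scaling. They also numbered 1 with a mean of at least 5 FPKM (3 clock genes tested), 3 with a pseudocount of 0.1 and 8 with voom. In EGR1OV against Sham they numbered 4 with a pseudocount of 0.1, voom or no fold threshold, and 1 with the stricter filter, median-ratio scaling or quantile normalization. With quantile normalization the gene called was Cry1, lower in EGR1OV, and the calls of Nr1d1 and Arntl were lost. In EGR1OV against H/R they numbered 1 with the stricter filter and 5 with no fold threshold. Leaving out a library gave 1 to 3, 1 to 4 and 2 to 4 clock genes, and 0 to 2, 3 to 3 and 3 to 4 other clock genes. Those fits called 3.21% to 4.14%, 16% to 17% and 18.5% to 19.3% of all genes. Other clock genes called after H/R numbered 2 with a pseudocount of 0.1, either scaling or voom (24 tested), and 5 with no fold threshold. They numbered 0 of 36 tested with no filter and 0 of 18 tested with the stricter filter. In EGR1OV against Sham they numbered 5 with a pseudocount of 0.1 and 16 with no fold threshold. In EGR1OV against H/R they numbered 5 with a pseudocount of 0.1, quantile normalization or voom, and 17 with no fold threshold. Over all genes, 5.47%, 20.6% and 24.3% were called in the 3 comparisons with a pseudocount of 0.1, and 7.1%, 21.4% and 25.2% with voom. With no fold threshold the shares were 11.7%, 45.9% and 51%. After H/R, 1.41% of all genes were called with no filter, 4.9% with the stricter filter, 3.92% with median-ratio scaling and 3.93% with quantile normalization. In EGR1OV against Sham the last 3 settings called 17.3%, 16.2% and 16.5%, and in EGR1OV against H/R 20%, 18.3% and 18.7%. Voom and the smaller pseudocount do not add 1 FPKM to genes near that level, and the stricter filter tests fewer genes. The cause of the shifts was not tested for any of these settings.

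Labels give the groups equal replicate numbers but do not say what a number shares. Deviations of same-numbered libraries correlated from -0.195 to 0.263, so the numbers were not taken as pairs. With the replicate block, 1, 2 and 3 clock genes were called, beside 3.69%, 16.5% and 19% of all genes. Nr1d2 after H/R then had a limma adjusted p of 0.0528.

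Signs reversed only for genes that were not called. Per2 after H/R was -0.0056 without Sham replicate 2, -0.0325 without H/R replicate 2 and -0.0118 without H/R replicate 3, in a range of -0.0325 to 0.0787 over the libraries left out. Nr1d2 in EGR1OV against Sham was -0.0672 after quantile normalization. Clock in EGR1OV against H/R was -0.0404 after median-ratio scaling, -0.094 after quantile normalization and -0.0008 without H/R replicate 2, in a range of -0.0008 to 0.0514 over the libraries left out. Nampt after H/R moved from -0.03 to 0.0022 with median-ratio scaling and to 0.0028 with quantile normalization, and ranged from -0.0965 to 0.0088 over the libraries left out. Scaling also moved the share of called genes that were higher, over all genes, from 37.7% to 58.2% (median-ratio) and 56.5% (quantile) for H/R against Sham, from 60.3% to 54.9% and 45.9% for EGR1OV against Sham, and from 63.2% to 51% and 42.5% for EGR1OV against H/R. Low reads limit Dbp and Per2 most.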
